A study of Homo sapiens with 10 samples.

Results

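In K562 cells, 78 genes were expressed most highly with 2 µM CBP30, above both the vehicle and the higher dose of 5 µM. They were chosen on log2(FPKM + 1), FPKM being fragments scaled to transcript length and to library size. Both 2 µM samples had to lie above both DMSO samples and both 5 µM samples, and their mean had to be at least 0.5 above the mean of each. The 10 samples also had to average 0.5 FPKM or more, and symbols of histone, ribosomal protein, NDUF and small RNA genes, among others, were left out, which removed 18 of 96 genes. The 78 are 0.610% of the 12788 genes at or above that mean, out of 23284 in the table. K562 is an erythroleukaemia line derived from chronic myeloid leukaemia. For 48 h the cells received the vehicle DMSO or either bromodomain inhibitor, CBP30 or I-CBP112, at a dose of 2 or 5 µM, with 2 biological replicates in each of the 5 conditions, and polyadenylated RNA was sequenced. All samples come from this cell line, and which cells of the culture changed cannot be read from bulk RNA, in which fewer cells of a type and less RNA per cell cannot be told apart.

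CREBBP and EP300 are closely related lysine acetyltransferases that act as co-activators at promoters and enhancers. Their bromodomain binds acetylated lysines, and CBP30 and I-CBP112 are small molecules that occupy this pocket. In K562 cells the authors studied such inhibitors for their effect on proliferation and on transcription driven by GATA1 and MYC. GATA1 is the master factor of the erythroid programme. The genes described here form a different group: their level was highest at the intermediate exposure to CBP30.

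The data carry a limit that touches these genes directly. Replicate 1 of 2 µM CBP30 differed from replicate 2 along transcript length: over 12489 genes the difference between them had a Spearman rho of −0.602 with length, short transcripts being higher in replicate 1, whereas rho lay between −0.160 and 0.284 in the other 4 conditions (genes are not independent replicates). EEF1A1 was listed at 0 in replicate 1 and at 6661 FPKM in replicate 2. The libraries summed to 547504 to 689095 FPKM, with relative depths of 0.793 to 1.09 estimated from 629 low genes, and replicates correlated over genes with r of 0.962 to 0.976. Erythroid genes were expressed in the DMSO samples, with *HBG2* (fetal globin) at 442 and 435 FPKM and *GATA1* at 169.7 and 171. Other erythroid genes, *AHSP*, *SLC4A1* and *EPB42*, averaged under 0.5 FPKM over all samples. *BCR* and *ABL1*, taken as genes of K562 identity, were at 26.3 and 26.7 FPKM and at 63.1 and 63.1 in the DMSO samples.

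The 5 genes with a peak height of at least 1 were *IGFL2*, *BATF3*, *EIF4EBP3*, *ATP5J2-PTCD1* and *PRSS57*, where height is the mean of log2(FPKM + 1) at 2 µM minus the higher of the DMSO and 5 µM means. These levels chose the genes, so they are a description and carry no test. *IGFL2* (chr19:46646363-46664555, plus strand, GRCh37), which encodes a secreted protein of the insulin growth factor-like family, had the largest height, 1.75. *IGFL2* was at 6.79 and 8.94 FPKM in the DMSO samples, 44 and 34.6 at 2 µM and 11.1 and 10.7 at 5 µM CBP30, and 19.8 and 20.9 at 2 µM and 24.8 and 25 at 5 µM I-CBP112. Its 2 µM CBP30 values lay far above those of every other sample, and the I-CBP112 samples came next, with no overlap between any of the 5 conditions.

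*BATF3* (chr1:212859759-212873182, minus strand), a basic leucine zipper factor of the AP-1 superfamily known for its need in the development of cross-presenting dendritic cells, had a height of 1.24. *BATF3* was at 2.21 and 3.06 FPKM in the DMSO samples, 17.2 and 13.1 at 2 µM and 5.5 and 6.09 at 5 µM CBP30, and 5.48 and 5.46 at 2 µM and 6.72 and 7.85 at 5 µM I-CBP112. The mean at 2 µM was 5.75 times that in DMSO and the 5 µM CBP30 samples stayed above DMSO. *EIF4EBP3*, a repressor of cap-dependent translation that binds eIF4E, was at 11 and 6.75 FPKM with 2 µM CBP30 against 3.97 and 2.64 in DMSO and 1.88 and 2.82 at 5 µM. *PRSS57*, a serine protease of neutrophil granules, was at 4.24 and 2.18 FPKM with 2 µM CBP30 against 1.34 and 0.749 in DMSO and 0.801 and 0.96 at 5 µM. In both genes replicate 1 exceeded replicate 2 by more than the DMSO samples differed from each other. *ATP5J2-PTCD1*, a readthrough transcript whose reads are shared with its parent genes, ranged from 0.0223 to 10.7 FPKM over the 10 samples and differed widely within the 5 µM CBP30 pair (4.52 and 0.205), so its place here is uncertain.

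**Figure D1:**
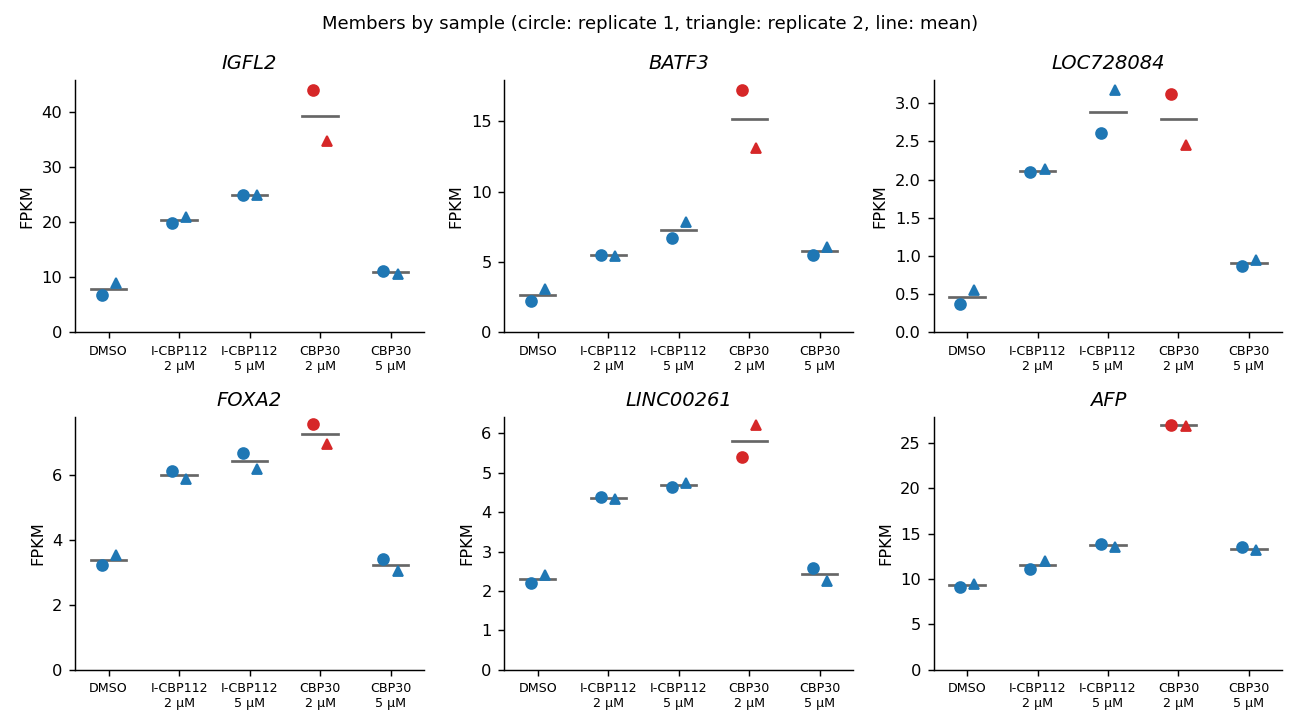
FPKM of 6 of the genes in each of the 10 samples by condition, with circles for replicate 1, triangles for replicate 2 and a line at the mean of each pair; the 2 µM CBP30 samples are red. IGFL2, BATF3 and AFP stand highest with 2 µM CBP30, and the I-CBP112 samples of LOC728084 reach 2.61 and 3.17 FPKM at 5 µM, beside 3.12 and 2.46 with 2 µM CBP30.

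Next in height came *LINC00261*, *LOC728084*, *AFP*, *SAPCD1* and *FOXA2*, with heights of 0.91 to 0.99. *FOXA2* (chr20:22561636-22566093, minus strand) is a forkhead pioneer factor of endoderm, and *LINC00261* (chr20:22528301-22559280, minus strand) is a long non-coding RNA gene beside it, 2.355 kb away in this annotation. *FOXA2* was at 3.21 and 3.54 FPKM in the DMSO samples, 7.56 and 6.95 at 2 µM and 3.43 and 3.05 at 5 µM CBP30, and 6.13 and 5.89 at 2 µM and 6.66 and 6.19 at 5 µM I-CBP112. *LINC00261* was at 2.21 and 2.39 FPKM in the DMSO samples, 5.4 and 6.22 at 2 µM and 2.58 and 2.26 at 5 µM CBP30, and 4.4 and 4.35 at 2 µM and 4.64 and 4.74 at 5 µM I-CBP112. In both genes the DMSO and 5 µM CBP30 samples overlapped, and all I-CBP112 samples lay between them and the 2 µM CBP30 samples. *AFP* (chr4:74296855-74321891, plus strand), alpha-fetoprotein, the main serum protein of the fetal liver, had a height of 0.96. *AFP* was at 9.16 and 9.45 FPKM in the DMSO samples, 26.9 and 26.9 at 2 µM and 13.6 and 13.1 at 5 µM CBP30, and 11.1 and 11.9 at 2 µM and 13.8 and 13.5 at 5 µM I-CBP112. The pair at 2 µM CBP30 differed by less than the pair in DMSO. *LOC728084* (chr12:89404458-89703343, minus strand), now named LINC02458, is a long non-coding RNA gene. *LOC728084* was at 0.375 and 0.55 FPKM in the DMSO samples, 3.12 and 2.46 at 2 µM and 0.865 and 0.952 at 5 µM CBP30, and 2.1 and 2.14 at 2 µM and 2.61 and 3.17 at 5 µM I-CBP112. It was the only one of these 4 whose 5 µM I-CBP112 samples overlapped the 2 µM CBP30 samples.

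Of other genes of the liver and endoderm, all chosen after their values were seen, several were low in these cells and *GATA6* was not. *ALB*, which neighbours *AFP*, was at 0.317 and 0.309 FPKM in DMSO and 0.836 and 0.533 with 2 µM CBP30, and *HNF4A*, *TTR*, *APOA1*, *SOX17* and *GATA4* had means under 0.5 FPKM. *GATA6*, an endoderm transcription factor, was at 3.93 and 3.46 FPKM in DMSO and between 2.82 and 4.17 over all 10 samples, and it passed no test between conditions (limma). The FOXA paralogues were outside the rule. *FOXA1* was at 1.68 and 1.39 FPKM in DMSO, 1.17 and 0.967 at 2 µM CBP30 and 0.922 and 0.764 at 5 µM, and *FOXA3* was at 8.45 and 8.42 in DMSO, 16.5 and 12.4 at 2 µM and 12.5 and 12.7 at 5 µM.

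Promoters of the 4 genes whose sequence RefSeq gave and whose I-CBP112 values are central below are shown, 250 bases before to 50 after the annotated start, with motif matches in capitals: TATAAA in each, on either strand, and TGTTTAC, a forkhead motif, in *LINC00261*, where both matches lie on the opposite strand and appear as their reverse complements. The promoters lie on GRCh38.p14 at chr19:46147988-46148287, plus strand (*IGFL2*), chr20:22578593-22578892, minus strand (*LINC00261*), chr12:89019643-89019942, minus strand (*LOC728084*) and chr4:73435971-73436270, plus strand (*AFP*). The annotated starts are those of RefSeq and need not match the ends of the gene spans given above, which come from GENCODE on GRCh37. How far apart they lie was not measured. The span of *LOC728084* is long, and its RefSeq start may lie well inside it.
IGFL2: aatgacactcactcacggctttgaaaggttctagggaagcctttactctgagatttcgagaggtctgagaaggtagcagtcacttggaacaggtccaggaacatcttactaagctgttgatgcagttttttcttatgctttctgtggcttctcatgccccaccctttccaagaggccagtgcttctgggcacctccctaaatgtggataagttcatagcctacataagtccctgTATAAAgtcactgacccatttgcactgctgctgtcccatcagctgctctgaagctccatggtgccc
LINC00261: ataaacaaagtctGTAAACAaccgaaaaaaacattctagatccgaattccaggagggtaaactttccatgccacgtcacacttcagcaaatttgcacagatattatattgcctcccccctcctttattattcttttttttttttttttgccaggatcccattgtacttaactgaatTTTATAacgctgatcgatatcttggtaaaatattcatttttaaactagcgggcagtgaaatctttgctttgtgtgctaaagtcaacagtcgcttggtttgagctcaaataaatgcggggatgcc
LOC728084: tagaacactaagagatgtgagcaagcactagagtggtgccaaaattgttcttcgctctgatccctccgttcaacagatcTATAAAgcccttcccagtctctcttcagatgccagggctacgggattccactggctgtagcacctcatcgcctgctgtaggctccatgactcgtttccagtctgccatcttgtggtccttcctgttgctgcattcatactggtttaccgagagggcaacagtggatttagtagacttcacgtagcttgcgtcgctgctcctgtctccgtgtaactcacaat
AFP: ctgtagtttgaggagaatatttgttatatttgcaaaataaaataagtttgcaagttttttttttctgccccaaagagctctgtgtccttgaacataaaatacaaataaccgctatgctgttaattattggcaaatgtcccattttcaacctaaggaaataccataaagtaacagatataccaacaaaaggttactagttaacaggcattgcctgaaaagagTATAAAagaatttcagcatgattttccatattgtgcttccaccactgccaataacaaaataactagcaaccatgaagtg

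TATAAA began 29 bases before the start of *AFP* and 16 before that of *IGFL2*, but 171 before that of *LOC728084*, and in *LINC00261* it lay on the opposite strand, 74 bases before. Of 57 members with a promoter in the table, 6 held TATAAA (10.5%, against 12% of all 27305 promoters), and these were the 4 above, *EIF4EBP3* and *CCDC107*. TGTTTAC, which with TATAAA was chosen after these sequences were seen, was in 2 (3.51%, against 3.41%), *LINC00261* and *CTSF*. The AP-1 motif TGANTCA was in 2 (3.51%, against 7.76%), the CRE TGACGTCA in 0 (against 1.98%), the E-box CACGTG in 7 (12.3%, against 7.43%) and the GATA motif AGATAA in 2 (3.51%, against 10.5%). Both strands were searched for every motif, and a match is a description of the letters, not of binding. The median GC content of the 57 promoters was 65.3%, against 58.3% for all.

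*SAPCD1* was at 10.0 and 8.75 FPKM with 2 µM CBP30, 5.47 and 3.49 in DMSO and 3.65 and 2.25 at 5 µM. The other 68 members had heights from 0.50 to 0.80, and 39 of the 78 were under 0.6. Over all members the median height was 0.60, and the mean level at 2 µM was a median of 1.82 times that in DMSO and 1.81 times that at 5 µM. Mean levels at 2 µM ran from 1.07 FPKM to 218 for *ROMO1*, a mitochondrial inner membrane protein that modulates reactive oxygen species. Just inside the height of 0.5 were *SLC27A2* (0.50), *PPDPF* (0.502) and *CDC42EP5* (0.502), and just outside were *C12orf57* (0.499), *ZNF428* (0.497) and *NCOR1P1* (0.497). By the same measure, 123 genes were lowest at 2 µM CBP30, and the rule applied to I-CBP112 gave 3 genes with a peak and 2 with a trough at 2 µM. The rule's own contrasts give no evidence: 63 members passed limma for 2 µM CBP30 against DMSO (background 15.9% higher) and 62 for 2 µM against 5 µM CBP30 (background 21.3%). At 5 µM CBP30 both samples lay above both DMSO samples in 27 members (background 39.5%) and below in 11 (background 42.6%). In 7 members the mean was at least 1.5 times that in DMSO. The rule used both conditions, and the share of all tested genes at that ratio was not computed. Of these 7 members, *NPDC1*, a neural membrane protein linked to growth arrest, was at 13.7 and 13.9 FPKM against 5.01 and 4.96 in DMSO. *CD48*, a surface ligand of the lymphocyte receptor CD244, was at 1.96 and 1.49 against 0.423 and 0.452.

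**Figure D2:**
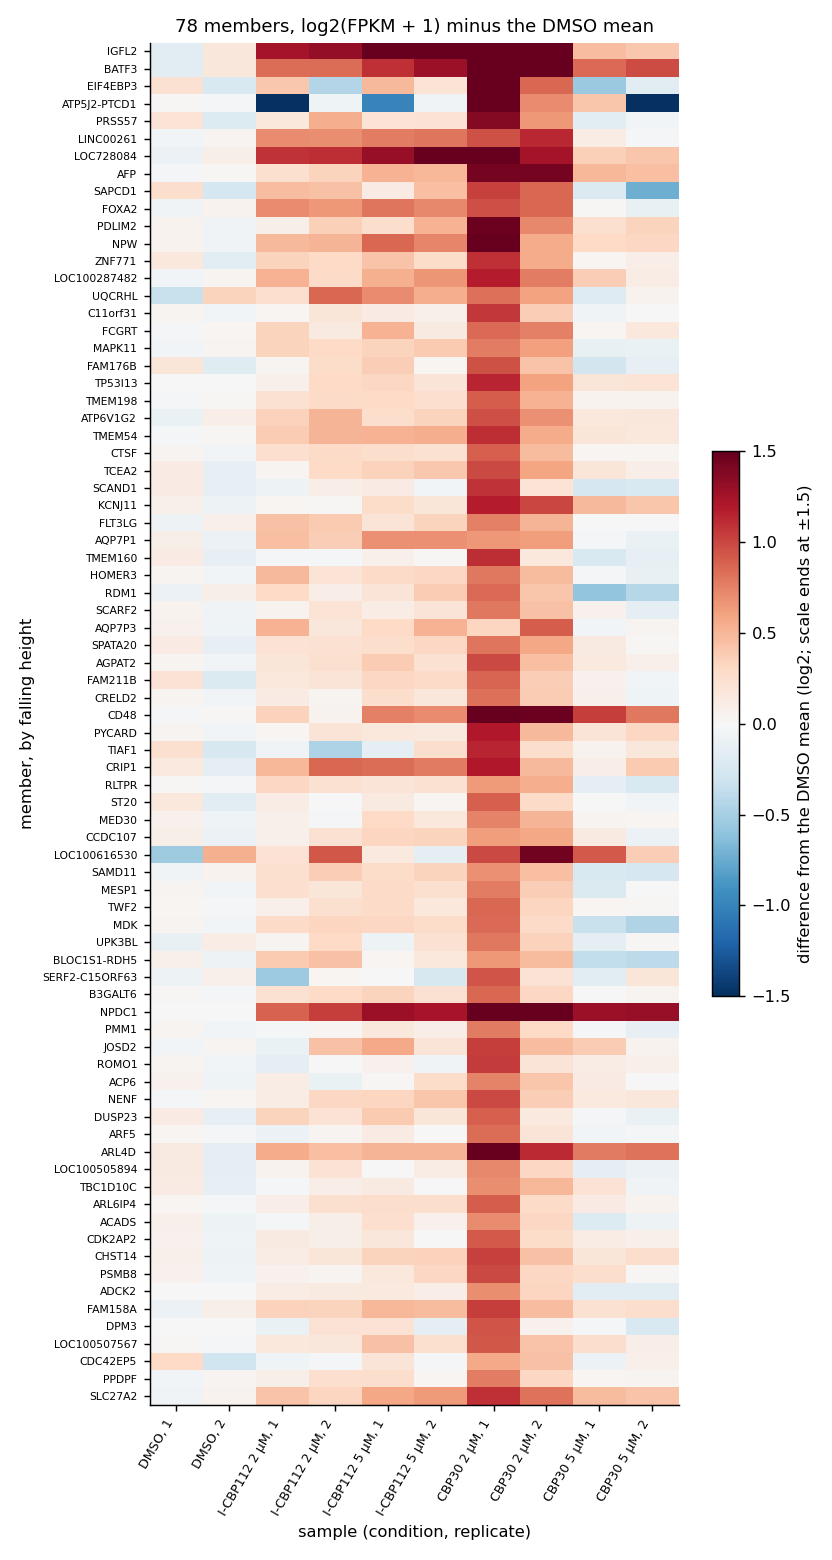
Difference of log2(FPKM + 1) from the DMSO mean for the 78 members (rows, by falling height) in each of the 10 samples (columns); red is higher and blue lower, and colours end at 1.5 either way. Values in the column of replicate 1 of 2 µM CBP30 are above those of replicate 2 in 75 of the 78 rows, and the I-CBP112 columns of IGFL2, BATF3, LOC728084 and NPDC1 are red at both doses.

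Membership was tied to the library that stood apart. Of the 78 members, 75 were higher in replicate 1 of 2 µM CBP30 than in replicate 2, the median difference in log2(FPKM + 1) being 0.44, and 0.004 over all tested genes. Taken from replicate 1 alone, the median height was 0.84, and from replicate 2 alone 0.40. With replicate 2 alone 23 members had a height of at least 0.5, 38 lay between 0.25 and 0.5, and 17 were under 0.25. The difference was plainest in the 10 most abundant members, *ROMO1*, *ARF5*, *MDK*, *ARL6IP4*, *PPDPF*, *SCAND1*, *DPM3*, *NENF*, *TMEM160* and *C11orf31*. *ROMO1* was at 281 and 155 FPKM in the 2 µM samples, 139 and 131 in DMSO and 146 and 143 at 5 µM. *MDK*, the heparin-binding growth factor midkine, was at 163 and 109.8 FPKM in the 2 µM samples, 92.2 and 87.5 in DMSO and 70.9 and 65.2 at 5 µM. *DPM3*, a subunit of dolichol-phosphate mannose synthase, was at 107 and 57.4 in the 2 µM samples, 54.7 and 55.2 in DMSO and 54.2 and 46.9 at 5 µM. In all 10 the height was 0.74 to 1.11 with replicate 1 and 0.06 to 0.37 with replicate 2, and 0 of the 10 met the rule without replicate 1.

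Members also had short, GC-rich transcripts. The median transcript length was 1233 bases (interquartile range 912.5 to 2122) for the 75 members with an annotated length, against 3008 (1784 to 4844) for all tested genes, and 61.3% of members were under 1500 bases, against 19.3%. Median GC content was 61.6%, against 48.5%. With replicate 1 of 2 µM CBP30 left out, 36 genes met the rule, 23 of them members. With the trend of each sample along transcript length removed, 38 genes met it, 25 of them members, and with the trends along length and GC content removed, a step chosen after the data were seen, 34 did, 19 of them members. Both member counts include *TIAF1*, *BLOC1S1-RDH5* and *SERF2-C15ORF63*, which had no annotated length or GC content. Their values were left as they were, so these checks could not remove them. The 14 members that met the rule in all 3 ways were *IGFL2*, *BATF3*, *EIF4EBP3*, *ATP5J2-PTCD1*, *PRSS57*, *LINC00261*, *LOC728084*, *AFP*, *SAPCD1*, *FOXA2*, *UQCRHL*, *MAPK11*, *KCNJ11* and *RLTPR*. They include the 10 members with the largest height. All 3 ways apply the rule again to the values that chose the genes, so they favour large heights and are a description. The part of transcript length and of library preparation was not tested, in these members or in the others.

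**Figure D3:**
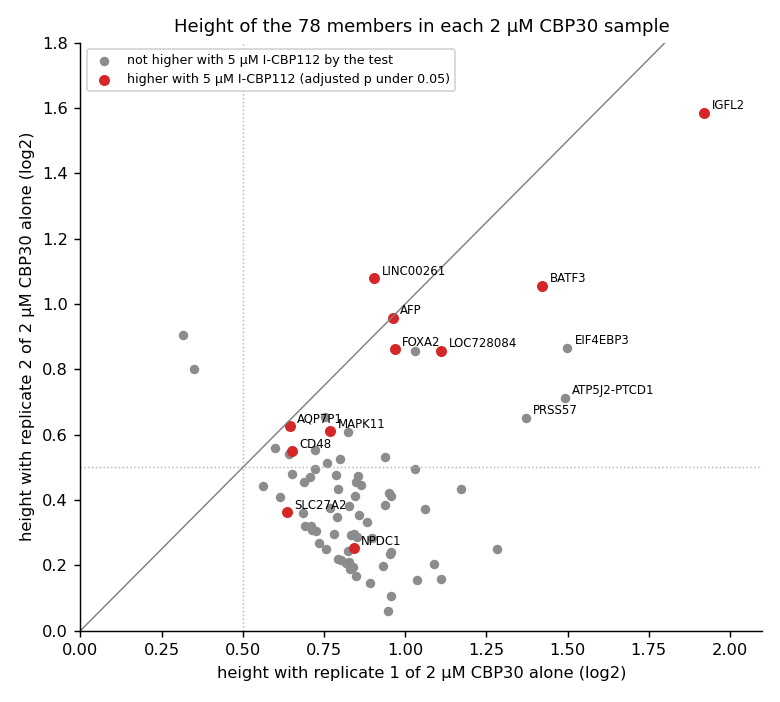
Height of each of the 78 members taken from replicate 1 of 2 µM CBP30 alone (horizontal) and from replicate 2 alone (vertical), both in log2 units; dotted lines mark 0.5, the solid line equality, and red points the 11 members that rose with 5 µM I-CBP112. Of the members, 75 lie below the line, and IGFL2 is the highest on both axes, at 1.92 and 1.59.

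**Figure D4:**
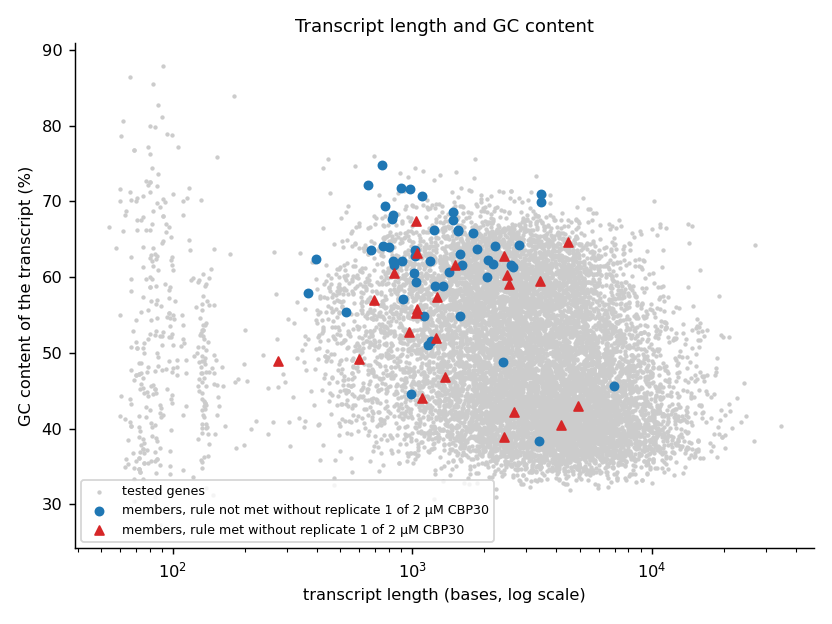
GC content (%) against transcript length (bases, log scale) of the 75 annotated members and, in grey, all tested genes; red triangles met the rule without replicate 1 of 2 µM CBP30 and blue circles did not. Most members lie to the left of the median length of 3008 bases and above the median GC content of 48.5%.

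By class, 67 members were protein-coding, 8 long non-coding RNA genes and 2 pseudogenes of the water channel AQP7 (*AQP7P1* and *AQP7P3*), which share sequence with their parent gene, and 1 had no class. *UQCRHL* is a near-identical copy of *UQCRH*, so reads may be split between them. Readthrough or merged loci were *ATP5J2-PTCD1*, *BLOC1S1-RDH5* and *SERF2-C15ORF63*, all uncertain for the same reason. Members sat within 500 kb of each other in 9 pairs, *LINC00261* and *FOXA2* being the closest and *FLT3LG* and *FCGRT* (20.6 kb apart) next. The next 5 members were picked for their known roles after their values were seen, and they stand for no group that was tested. *FLT3LG*, a growth factor for dendritic cell progenitors, was at 3.48 and 2.78 FPKM with 2 µM CBP30 and 1.51 and 1.79 in DMSO, while its receptor *FLT3* was at or near 0 in all samples. *FCGRT*, the neonatal Fc receptor, was at 2.22 and 2.01 with 2 µM CBP30 against 0.754 and 0.817 in DMSO. *RLTPR*, a scaffold of T cell co-stimulation, was at 6.79 and 6.27 against 4.06 and 3.92. All 3 met the rule without replicate 1, but with the length trend removed, or the length and GC trends, only *RLTPR* did. *PYCARD*, the inflammasome adaptor ASC, was at 63 and 38 with 2 µM CBP30 against 27.5 and 26.1 in DMSO, and *PSMB8*, an immunoproteasome subunit, at 5.41 and 3.0 against 2.38 and 2.08. Neither of them met the rule without replicate 1 or with these trends removed. *KCNJ11*, the pore subunit of the ATP-sensitive potassium channel, was also picked after its values were seen. It was at 5.83 and 5.07 FPKM with 2 µM CBP30, 2.2 and 1.87 in DMSO and 3.24 and 3.04 at 5 µM, with no overlap.

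The I-CBP112 samples address whether another ligand of the same bromodomains moved these genes. The I-CBP112 samples took no part in the rule beyond the mean over all samples, but the DMSO samples did, and genes low in DMSO by chance are favoured in that choice. Both I-CBP112 comparisons share those DMSO samples. With 5 µM I-CBP112, 11 of the 78 members rose (14.1%) and 0 fell, against backgrounds of 3.84% higher and 3.28% lower over all tested genes (limma, Benjamini-Hochberg adjusted p under 0.05). At an unadjusted p under 0.05 the counts were 28 higher and 0 lower of the 78, against 1400 higher and 1419 lower of all 12788 tested genes. The median log2 change was 0.28 for members and −0.004 for all genes, and in 55 members both 5 µM samples lay above both DMSO samples (70.5%, background 30.5%).

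The largest changes were those of *IGFL2*, *LOC728084*, *NPDC1* and *BATF3*, whose levels in every sample stand above or follow here. *IGFL2* rose by 1.56 (SE 0.14, adjusted p = 0.00157) on the log2(FPKM + 1) scale, 3.17-fold in mean FPKM. *LOC728084* rose by 1.41 (SE 0.12, adjusted p = 0.00119) and *BATF3* by 1.19 (SE 0.15, adjusted p = 0.00617), all in limma. None of the 3 genes overlapped with DMSO, and *BATF3* at 5 µM I-CBP112 stayed below both 2 µM CBP30 samples. *LINC00261* rose by 0.78 (SE 0.08, adjusted p = 0.00279), *FOXA2* by 0.76 (SE 0.08, adjusted p = 0.00252) and *AFP* by 0.51 (SE 0.05, adjusted p = 0.00246). *FOXA2* and *LINC00261* are the neighbouring pair, and their changes differed by less than either SE. *NPDC1* was at 5.01 and 4.96 FPKM in the DMSO samples, 25.5 and 16.6 at 2 µM and 13.7 and 13.9 at 5 µM CBP30, and 10.1 and 11.3 at 2 µM and 13.5 and 13.1 at 5 µM I-CBP112. With 5 µM I-CBP112 it rose by 1.26 (SE 0.17, adjusted p = 0.00715) in limma, and its I-CBP112 and 5 µM CBP30 samples all lay far above DMSO.

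Smaller changes were seen in *CD48*, *AQP7P1*, *SLC27A2* and *MAPK11*. *CD48* was at 0.423 and 0.452 FPKM in the DMSO samples, 3.26 and 2.97 at 2 µM and 1.96 and 1.49 at 5 µM CBP30, and 0.833 and 0.488 at 2 µM and 1.43 and 1.35 at 5 µM I-CBP112. Its DMSO samples lay below all others, and with 5 µM I-CBP112 it rose by 0.73 (SE 0.12, adjusted p = 0.0174), on a scale that understates the ratio at such low levels. *AQP7P1* was at 0.577 and 0.405 FPKM in the DMSO samples, 1.33 and 1.3 at 2 µM and 0.466 and 0.394 at 5 µM CBP30, and 1.03 and 0.928 at 2 µM and 1.39 and 1.4 at 5 µM I-CBP112. It rose by 0.69 (SE 0.08, adjusted p = 0.00515) with 5 µM I-CBP112, and its DMSO and 5 µM CBP30 samples overlapped. *SLC27A2* encodes a very long-chain acyl-CoA synthetase that also transports fatty acids. *SLC27A2* was at 16 and 17.3 FPKM in the DMSO samples, 36.6 and 30.1 at 2 µM and 23.6 and 22.7 at 5 µM CBP30, and 22.7 and 21.1 at 2 µM and 25.5 and 26.4 at 5 µM I-CBP112. It rose by 0.61 (SE 0.09, adjusted p = 0.0121) with 5 µM I-CBP112, where both samples lay above those at 5 µM CBP30. *MAPK11* encodes the kinase p38β. *MAPK11* was at 6.88 and 7.39 FPKM in the DMSO samples, 12.9 and 11.4 at 2 µM and 6.53 and 6.61 at 5 µM CBP30, and 9.22 and 9.01 at 2 µM and 9.27 and 9.69 at 5 µM I-CBP112. Its change with 5 µM I-CBP112, 0.37 (SE 0.07, adjusted p = 0.0236) in limma, was the smallest of the 11. The calls of *CD48*, *NPDC1* and *SLC27A2* were lost when any of the DMSO or 5 µM I-CBP112 samples was left out (adjusted p = 0.0954 to 0.118 for *CD48*, 0.0614 to 0.0678 for *NPDC1* and 0.0618 to 0.103 for *SLC27A2*, limma). That of *MAPK11* was lost without any sample other than those with 2 µM CBP30 (0.0557 to 0.161), and that of *BATF3* without replicate 2 of 5 µM I-CBP112 (0.063).

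Of the 11, 9 met the rule without replicate 1 of 2 µM CBP30, the exceptions being *NPDC1* and *SLC27A2*, and 7 met it in all 3 ways. The 23 members that met the rule without replicate 1 had a median log2 change of 0.37 with 5 µM I-CBP112, and the 55 that did not a median of 0.25. The DMSO samples enter both this split and the change, so the medians are a description and the difference was not tested. Members with high peaks also failed the test: *EIF4EBP3* was at 4.95 and 3.89 FPKM with 5 µM I-CBP112 (log2 change 0.34, SE 0.33, adjusted p = 0.622, limma) and *PRSS57* at 1.34 and 1.35 (log2 change 0.21, SE 0.25, adjusted p = 0.697). In both the SE was close to the change in size. In 63 members both 5 µM I-CBP112 samples lay below both 2 µM CBP30 samples, in 14 they overlapped, and only in *AQP7P1* did they lie above, at 1.39 and 1.4 against 1.33 and 1.3 FPKM. Members were chosen for high 2 µM CBP30 samples, so the rule favours this order and the counts are a description. The share over all tested genes was not computed. Without either DMSO sample 7 members rose with 5 µM I-CBP112, and without replicate 1 or 2 of that dose 7 or 6 did. Without replicate 1 of 2 µM CBP30 in the fit, 29 members rose with 5 µM I-CBP112 instead of 11, and likewise without replicate 2. Either way that pair no longer enters the shared estimate of spread. The share of all tested genes called in these fits is not given here, so the counts are not a result about the members.

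At 2 µM I-CBP112, 5 members rose and 0 fell, against backgrounds of 0.868% and 0.735% (limma). At an unadjusted p under 0.05, 20 of the 78 were higher and 0 lower, against 895 higher and 866 lower of all 12788 tested genes. The 5 were *IGFL2* (1.28, SE 0.14, adjusted p = 0.00941), *LOC728084* (1.09, SE 0.12, adjusted p = 0.00937), *NPDC1* (0.96, SE 0.17, adjusted p = 0.045), *LINC00261* (0.70, SE 0.08, adjusted p = 0.0112) and *FOXA2* (0.68, SE 0.08, adjusted p = 0.0103), and all 5 were among the 11 at 5 µM. *BATF3* and *AFP* missed the threshold with the same adjusted p of 0.0502, at log2 changes of 0.84 and 0.28. In 48 members both 2 µM samples lay above both DMSO samples (background 25%). For the counts that follow, with a sample left out, the share of all tested genes called is not given here. With either 2 µM I-CBP112 sample left out 0 members passed, with either DMSO sample left out 1 did, and with either 2 µM CBP30 sample left out 23 did. Without a 2 µM CBP30 sample *BATF3* and *AFP* passed as well (adjusted p = 0.0171 and 0.0186 without replicate 1, limma). The call of *NPDC1* was lost in 12 of 21 alternatives (adjusted p of 0.000365 to 0.259 over all 21, limma), among them those that left out a sample of DMSO, of 5 µM CBP30 or of either I-CBP112 dose.

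The comparison of 5 µM with 2 µM I-CBP112 played no part in the rule, which used these samples only through the mean over all samples. There 0 members passed in either direction in limma, against backgrounds of 0.0547% higher and 0.00782% lower. At an unadjusted p under 0.05, 6 of the 78 were higher and 1 lower, against 428 higher and 346 lower of all 12788 tested genes. The median log2 difference was 0.08 for members and 0 for all tested genes. In 29 members (37.2%) both 5 µM samples lay above both 2 µM samples, against a background of 23.1%, and in 4 they lay below, against 23.2%. *IGFL2* was at 24.8 and 25 FPKM at 5 µM against 19.8 and 20.9 at 2 µM, *BATF3* at 6.72 and 7.85 against 5.48 and 5.46, and *AFP* at 13.8 and 13.5 against 11.1 and 11.9. These 3 genes were higher at the higher dose of I-CBP112, in the opposite order to that which the rule selected for CBP30.

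**Figure D5:**
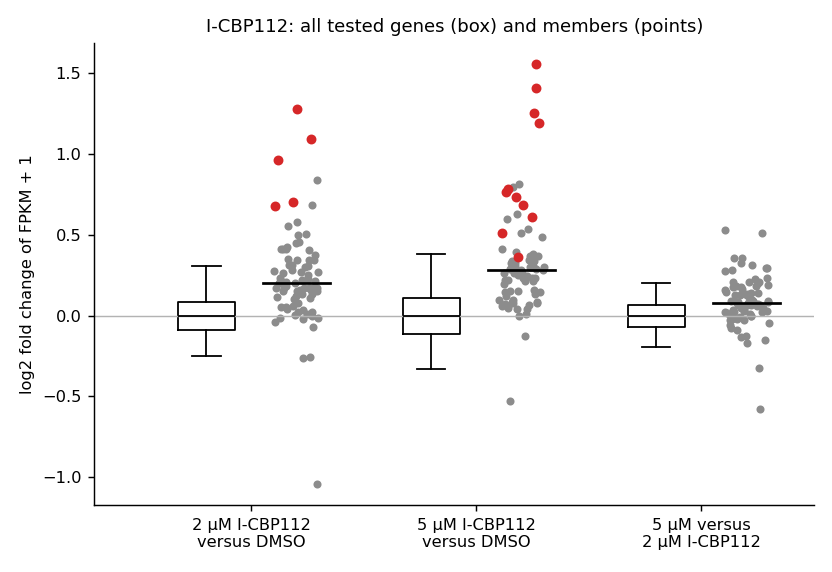
Log2 fold change of FPKM + 1 in 3 comparisons of I-CBP112; boxes show the median, quartiles and the 5 to 95% range of all tested genes, points the 78 members (red where adjusted p is under 0.05 in limma) and the short line their median. The members' medians are 0.20, 0.28 and 0.08, and red points number 5, 11 and 0.

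BATF proteins pair with JUN factors and bind composite sites with interferon regulatory factors (IRFs). Of 14 AP-1, BATF and small MAF genes, 12 were tested: with 5 µM I-CBP112 2 rose (*BATF3* and *FOS*) and 0 fell, and with 2 µM 0 did in either direction, with medians of 0.05 and 0.07. Backgrounds were 3.84% higher and 3.28% lower at 5 µM I-CBP112, and 0.868% and 0.735% at 2 µM. With 2 µM CBP30 4 rose (*BATF3*, *JUN*, *JUND*, *FOS*) and 2 fell (the call of *BATF3* follows from the rule), against backgrounds of 15.9% higher and 16.3% lower, and with 5 µM 6 rose and 4 fell (21.2% and 25.4%). *JUN* was at 7.09 and 7.93 FPKM in DMSO, 13.8 and 11 with 2 µM CBP30 and 24.5 and 24.7 with 5 µM, and *FOSL1* at 6.84 and 5.99 in DMSO, 3.32 and 2.29 with 2 µM and 1.35 and 1.12 with 5 µM. Both changed further at 5 µM, in opposite directions, where *BATF3* was lower than at 2 µM. *BATF2* was at 3.99 and 4.13 FPKM in DMSO and 3.49 and 3.47 with 2 µM CBP30, and *BATF* had a mean under 0.5 FPKM. Of 9 IRFs 5 were tested, and 1 rose with 2 µM CBP30 (*IRF3*), 2 with 5 µM (*IRF2* and *IRF7*) and 0 with either dose of I-CBP112, against the same backgrounds. *IRF8* and *IRF4*, the usual partners in immune cells, were at or near 0.

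For *IGFL2*, the list of IGF-like ligands and their receptor held 2 tested genes. *IGFLR1* was at 5.25 and 3.79 FPKM in the DMSO samples, 7.5 and 4.59 at 2 µM and 5.08 and 5.69 at 5 µM CBP30, and 4.66 and 5.45 at 2 µM and 4.5 and 4.67 at 5 µM I-CBP112. This gene, which encodes the receptor of IGFL1, passed in no comparison. *IGFL1* and *IGFL4* were listed at 0 in all samples and *IGFL3* was under 0.5 FPKM.

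Of 17 erythroid genes, 14 were tested and none is a member: 9 fell with 2 µM CBP30, 13 with 5 µM, 3 with 2 µM I-CBP112 and 6 with 5 µM, and 0 rose. Of all genes tested, 16.3% fell with 2 µM CBP30, 25.4% with 5 µM, 0.735% with 2 µM I-CBP112 and 3.28% with 5 µM. Their summed level was 2175 to 2222 FPKM in DMSO, 895 to 1178 with 2 µM CBP30, 741 to 777 with 5 µM, 1341 to 1500.2 with 2 µM I-CBP112 and 1327 to 1427 with 5 µM. The sum was lowest at 5 µM CBP30, where the median member differed from DMSO by 0.03 on the log2 scale. Of 13 megakaryocyte genes 4 were tested: 1 fell with 2 µM CBP30 (*ITGA2B*), 3 with 5 µM, and 1 rose with 5 µM I-CBP112 (*GP6*), where 3.84% of all genes rose. Their sum was 113 to 122 FPKM in DMSO, 70.4 to 134 with 2 µM CBP30, 48.1 to 49.2 with 5 µM, 97.1 to 119.5 with 2 µM I-CBP112 and 101 to 109 with 5 µM. *GP9*, *PF4* and *SELP* were listed at 0 throughout. Of 15 dendritic cell and monocyte genes 5 were tested: with 2 µM CBP30 *ID2*, *ZBTB46* and *LYZ* rose and *CD68* fell, with 5 µM the same 3 rose and 2 fell, with 5 µM I-CBP112 2 rose and 1 fell, and with 2 µM 1 rose. Over all genes tested, 15.9% rose at the lower and 21.2% at the higher CBP30 dose, while the I-CBP112 doses gave 0.868% and 3.84%. Their sum, most of it *LYZ* (lysozyme, at 38 and 38.4 in DMSO), was 53.9 to 55.1 FPKM in DMSO, 60.7 to 61.1 with 2 µM CBP30, 61.8 to 65.9 with 5 µM, 62.6 to 63.1 with 2 µM I-CBP112 and 68.2 to 68.3 with 5 µM. *CLEC9A*, *XCR1* and *CADM1*, markers of the dendritic cells that need BATF3, and *S100A8* and *S100A9* were listed at 0 in all 10 samples. The part of these lists in the members' values was not tested.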

How the data were processed

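RNA of K562 cells was sequenced as single-end stranded libraries. The authors deposited FPKM values, 1 column per sample and unpooled; the submitters' processing notes name FastQC, TopHat2 2.0.10, Bowtie 1.0.0, SAMtools 0.1.19, Cufflinks 2.2.1 and Cuffnorm, and the build is hg19. The gene annotation was not given in the sources used here. FPKM holds no read counts, so precision rests on 2 samples per condition, and sums and relative depths are in the report. The test was that of limma 3.58.1 (R 4.3.3) on log2(FPKM + 1), by lmFit and moderation (eBayes with a variance trend; 5 residual and 2.15 prior degrees of freedom) over the 12788 genes averaging 0.5 FPKM or more, with all 5 conditions in 1 fit and Benjamini-Hochberg adjustment. Code was tested on simulated data. Transcript length, GC content and GRCh37 positions came from GENCODE by symbol (96.1% matched), promoters from RefSeq. Named genes were the markers, the 10 highest peaks, the 10 most abundant members, the called members, those at the threshold and list members; others are said to be chosen later. The members, lists and tests were chosen with earlier results of these data known. Alternatives are in the closing section.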

Additional observations from a re-analysis of the deposited data

Results flagged for a closer look

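The doses of the inhibitors ran in opposite order in part of the group. For CBP30 the rule placed every member higher at 2 µM than at 5 µM, whereas in 29 of the 78 members both 5 µM I-CBP112 samples lay above both 2 µM samples, against 23.1% of all tested genes. The CBP30 order is fixed by the choice of members, and the difference between the inhibitors was not tested. *IGFL2*, *BATF3*, *LOC728084*, *FOXA2*, *LINC00261* and *AFP* are among the 29, and 0 of the 29 passed the test of 5 µM against 2 µM I-CBP112 in limma.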

How the results depend on the processing

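The number of genes that met the rule was 78, and it was 162 with a pseudocount of 0.1, 46 with a filter at 5 FPKM, 38 with the length trend removed, 34 with the length and GC trends removed (chosen after the data were seen), 670 at a height of 0.25 and 5 at a height of 1. Leaving out samples gave 36 (without replicate 1 of 2 µM CBP30) to 491 (without replicate 2). The 11 members higher with 5 µM I-CBP112 became 7 with a filter at 5 FPKM, 20 with the length trend removed, 30 with the length and GC trends removed, 22 in a fit of the compared groups only and 20 with the replicate block and the length trend removed, and 6 to 29 when a sample was left out: 7 without either DMSO sample, 7 or 6 without replicate 1 or 2 of 5 µM I-CBP112, and 29 without either 2 µM CBP30 sample. The 5 higher with 2 µM I-CBP112 became 13, 18 and 0 with the length trend removed, both trends removed and only the compared groups fitted, 12 with the replicate block once the length trend was removed, and 0 to 23 when a sample was left out: 0 without either 2 µM I-CBP112 sample, 1 without either DMSO sample and 23 without either 2 µM CBP30 sample. No member was called lower, and none between the I-CBP112 doses, in the alternatives run. The share of all tested genes called in each alternative is not given here, so a higher count is not a result about the members. *IGFL2*, *FOXA2*, *LINC00261*, *LOC728084*, *AFP* and *AQP7P1* stayed past the threshold with 5 µM I-CBP112 in each alternative that kept them. *BATF3* lost it without replicate 2 of 5 µM I-CBP112 (adjusted p = 0.063, the range over its alternatives being 0.00176 to 0.063), *MAPK11* in 8 of 21 settings, *NPDC1* and *SLC27A2* in 4 of 21 and *CD48* in 4 of 20. With 2 µM I-CBP112, *NPDC1* lost it in 12 of 21, *FOXA2* in 5 and *IGFL2* in 3 of 21, and *LINC00261* and *LOC728084* in 5 of 20. Same-numbered samples did not deviate together over genes (correlations of −0.07 to 0.09). This cannot exclude that they were handled together, so the samples were treated as unpaired. With the replicate block 11 members were higher with 5 µM and 4 with 2 µM I-CBP112. Having 2 samples per condition limits precision.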
